A study of Mus musculus with 12 samples.

Results

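The genes examined were those of the mitochondrial ribosomal proteins, chosen by gene symbol alone. They were all genes named Mrpl or Mrps followed by a number on an Affymetrix mouse expression array, counted where a probe set carried that symbol and no other. A probe set is a group of short array probes whose signals are summarised to 1 value, and the probe set with the highest mean over the 6 samples of a tissue stood for its gene. This gave 76 genes of 18193 with such a probe set, 47 for the large subunit (Mrpl) and 29 for the small subunit (Mrps). All 76 passed the filter on dim probe sets in both tissues. Mrpl30 and Mrpl53 were seen only by probe sets that carry a further symbol, and were not counted.

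Liver and quadriceps muscle came from 4-week-old C57BL/6 mice, all of dams kept on a normal protein diet (20% casein) without detectable taurine from day 1 of pregnancy. The dams drank water (NP) or water with 1% taurine (NP+tau), a sulfur-containing amino acid, until birth. For each diet and tissue 3 samples were measured, and the comparison asks whether taurine in pregnancy left a mark on gene expression in the offspring. By the study's methods each pup had its own dam and gave both its liver and its muscle, so that replicates are separate animals.

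The mitochondrial ribosome translates the few proteins that mitochondrial DNA encodes, which are core subunits of oxidative phosphorylation. Its RNAs are made inside the organelle, while all its proteins are encoded in the nucleus and imported. The small subunit holds the messenger RNA and reads its codons, and the large subunit joins the amino acids. Some of these proteins have counterparts in bacterial ribosomes, and the others are found in mitochondria only. In mammals taurine is itself a building block of this system, since it is attached to a base of several mitochondrial transfer RNAs.

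Symbols and structure part in 3 places. In ribosome structures, the products of Mrps30 and Mrps18a lie in the large subunit, and Mrps36 belongs to the 2-oxoglutarate dehydrogenase complex. The genes are counted here by symbol, and the values of these 3 are given apart.

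Promoters were compared because the members were examined as a set that may be expressed together. RefSeq promoters (GRCm38.p6, 250 bases before to 50 after the start) matched 67 of the 76 members, with 73 promoters in all. Of these, 9.59% held the motif GCGCATGCG of NRF1, a factor known for its sites in nuclear genes of mitochondria, against 1.75% of all 32851 promoters. The letters CCGGAAGT of ETS factors such as GABPA stood in 16.4% against 3.89%, and AAGATGGCG of YY1 in 11.0% against 1.40%. CCAAT stood in 39.7% of member promoters and 37.4% of all, and TATAAA was found in 6.85% against 13.6%. Both strands were searched and no motif lies inside another. Median GC content was 57.7% in large-subunit and 59.3% in small-subunit promoters, against 52.7% in all. The median count of the letters CG was 19.5 and 24, against 7 in all. The shares above were matched for neither. CG stands in the NRF1, ETS and YY1 letters and not in CCAAT or TATAAA. By subunit, NRF1 letters stood in 6 of 46 large-subunit and 1 of 27 small-subunit promoters, ETS letters in 8 and 4, and YY1 letters in 4 and 4. A match describes letters in this window and is no measured site.

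Of the promoters, 4 are shown: those of Mrpl3, Mrpl36 and Mrpl10, the 3 members with an unadjusted p under 0.05 in muscle, and that of Mrps21, which had the smallest p of the members in liver. Capitals mark a motif on either strand (ATTGG is CCAAT on the other strand, CGCCATCTT is YY1, CGCATGCGC is NRF1).
Mrpl3 (chr9:105053018-105053317, plus strand): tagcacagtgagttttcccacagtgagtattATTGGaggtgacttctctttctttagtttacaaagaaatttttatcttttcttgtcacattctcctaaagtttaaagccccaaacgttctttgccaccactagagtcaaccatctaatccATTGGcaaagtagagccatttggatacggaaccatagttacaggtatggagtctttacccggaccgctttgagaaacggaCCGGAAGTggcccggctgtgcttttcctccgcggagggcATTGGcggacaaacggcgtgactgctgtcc
Mrpl36 (chr13:73330759-73331058, plus strand): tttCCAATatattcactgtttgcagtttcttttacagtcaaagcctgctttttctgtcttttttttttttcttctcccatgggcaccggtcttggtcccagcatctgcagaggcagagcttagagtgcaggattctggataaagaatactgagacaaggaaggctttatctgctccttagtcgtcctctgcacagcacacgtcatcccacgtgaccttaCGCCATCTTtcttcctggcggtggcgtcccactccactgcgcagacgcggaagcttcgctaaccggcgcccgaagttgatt
Mrpl10 (chr11:97041332-97041631, plus strand): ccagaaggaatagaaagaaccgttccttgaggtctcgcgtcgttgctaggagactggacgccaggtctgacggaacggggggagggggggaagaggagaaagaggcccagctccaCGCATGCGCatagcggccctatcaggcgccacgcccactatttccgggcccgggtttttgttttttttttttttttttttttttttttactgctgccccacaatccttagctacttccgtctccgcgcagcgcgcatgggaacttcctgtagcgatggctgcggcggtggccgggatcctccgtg
Mrps21 (chr3:95871465-95871764, minus strand): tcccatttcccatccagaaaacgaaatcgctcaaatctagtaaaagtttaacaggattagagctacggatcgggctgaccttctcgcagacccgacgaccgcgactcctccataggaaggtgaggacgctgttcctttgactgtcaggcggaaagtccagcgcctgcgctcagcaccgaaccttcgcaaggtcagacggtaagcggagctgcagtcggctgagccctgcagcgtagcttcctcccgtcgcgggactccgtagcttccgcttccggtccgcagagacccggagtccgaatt
Mrpl3 thus held CCAAT letters in 3 places and an ETS motif, Mrpl36 a CCAAT and a YY1 motif, and Mrpl10 an NRF1 motif. The Mrps21 promoter held none of the 5 motifs.

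Values are log2 RMA values, and a difference is the NP+tau mean minus the NP mean. Hepatocyte markers had mean levels of 13.92 to 14.11 in the livers, and skeletal muscle markers of 14.34 to 14.43 in the muscles. The liver array of NP+tau replicate 1 stood apart: its values differed from the median array by a median of 0.45, against 0.08 to 0.17 for the other 5 livers. The 3′ to 5′ difference of the Pcx control was 2.95 on it and 1.93 to 2.27 on the others. In both tissues the X-inactivation RNA Xist ranged from 5.07 to 5.96 in NP+tau replicates 2 and 3 and reached 10.85 or more elsewhere, so that this marker of sex moved with diet. The study's methods state that each group held both male and female pups. Here all NP samples had a high Xist level. In liver all 11 macrophage markers had differences below 0, 9 of them without overlap, where 9.22% of all genes were lower without overlap. Their mean levels were 9.11 to 9.98 in the NP livers and 7.62 to 8.68 in the NP+tau livers. The 6 fibroblast markers, all below 0, had mean levels of 8.50 to 9.77 and 7.75 to 8.17, and the 7 neutrophil markers, 6 of them below 0, of 6.47 to 9.35 and 5.01 to 5.61. Of 6 skeletal muscle markers kept in liver 5 lay above 0, with mean levels of 4.44 to 4.52 in NP livers and 5.35, 4.54 and 4.56 in NP+tau livers. In muscle 8 of 9 macrophage and 3 of 4 adipocyte markers lay below 0, with mean levels of 6.01 to 6.55 and 7.28 to 7.77 in NP muscles and 5.74 to 6.18 and 6.61 to 7.69 in NP+tau muscles. In whole tissue, fewer cells of a type and less RNA per cell cannot be told apart. The part of sex and of these cells in the values that follow was not tested.

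In liver the members of both subunits were on average slightly higher in NP+tau, and none passed the test. Of 47 large-subunit genes 38 had a difference above 0, with a median of 0.14 (interquartile range 0.03 to 0.26). Of 29 small-subunit genes 18 were above 0, with a median of 0.13 (-0.05 to 0.21). Over all 14202 genes tested, 46.3% were above 0 and the median was -0.04. By limma, 0 members had an adjusted p under 0.05 and 0 an unadjusted p under 0.05, where 0% and 5.15% of all genes did (0.831% higher and 4.32% lower). The median standard error of a single member was 0.20. When the arrays were centred on their medians, the median of all genes moved to 0.08 and those of the subunits to 0.25 and 0.24.

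A group difference can also be read from whether the samples overlap. In 12 of 76 members (15.8%) every NP+tau liver lay above every NP liver, against 5.95% of all genes. These were 7 large-subunit genes (Mrpl42, Mrpl11, Mrpl38, Mrpl13, Mrpl21, Mrpl16 and Mrpl15) and 5 small-subunit genes (Mrps21, Mrps16, Mrps22, Mrps36 and Mrps7). In the opposite direction only Mrpl45 did not overlap, 1 of 76 (1.32%) against 9.22% of all genes. Without NP+tau replicate 1, there were 11 large and 9 small members above NP without overlap against 11.8% of genes, and without NP replicate 1 there were 18 and 9 against 8.88%. Without NP+tau replicate 2 there were 13 and 8, against 10.2%. Without NP replicate 2 there were 9 and 5 (12.3%), without NP replicate 3 9 and 6 (10.1%), and without NP+tau replicate 3 11 and 5 (13.2%). Fewer samples make such separation easier, for members and for all genes. Without NP+tau replicate 1, Xist was high in all NP and low in all NP+tau livers. Diet and sex cannot be told apart there.

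**Figure D1:**
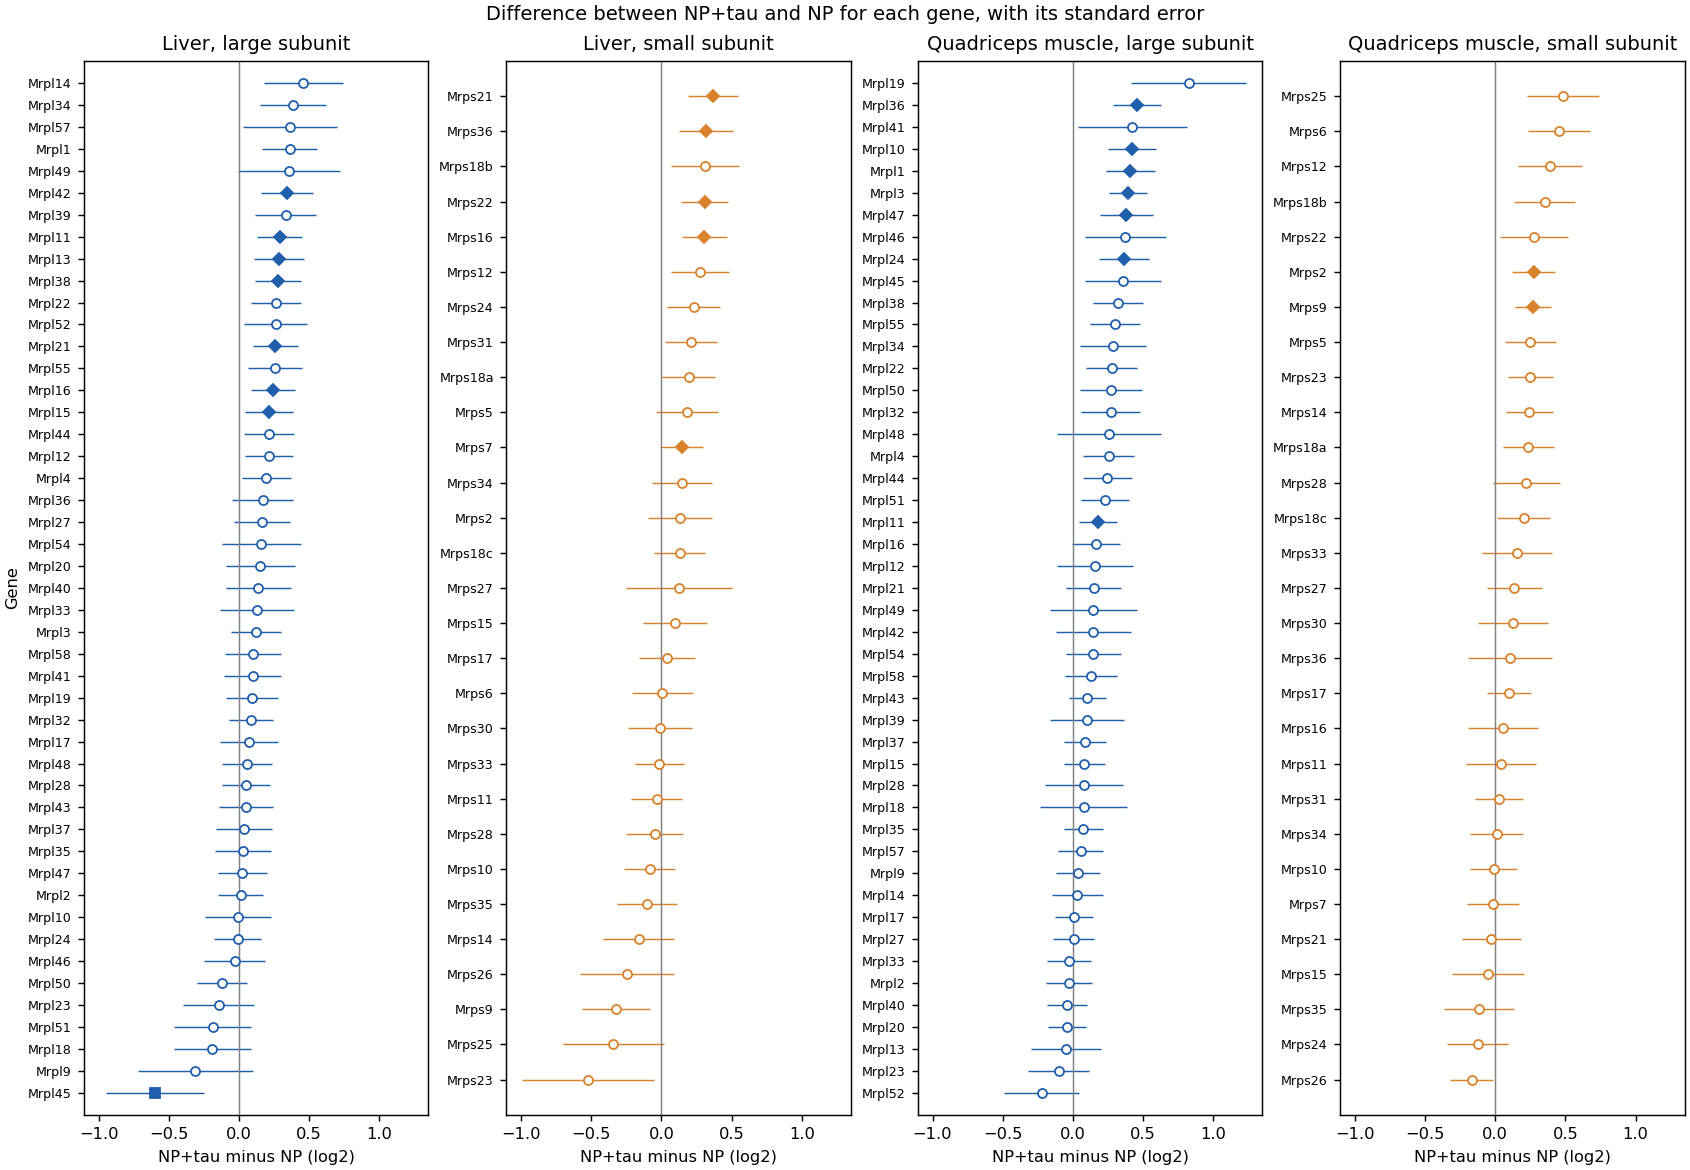
Difference between NP+tau and NP on the log2 scale (horizontal axis) for each member (vertical axis, sorted) in liver and quadriceps muscle, with bars of 1 standard error from limma; filled diamonds mark members whose NP+tau samples all lay above all NP samples, and the filled square the reverse. In liver 38 of 47 large-subunit and 18 of 29 small-subunit genes lie above 0, and in muscle 40 and 22, but no gene passed the adjusted threshold.

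Of the small subunit, Mrps21, whose product lies on the platform of the subunit and has a bacterial counterpart, had the smallest p in liver. It was at 8.65, 8.62 and 8.59 in NP and 9.23, 8.81 and 8.94 in NP+tau, a difference of 0.37 (standard error 0.18, n = 3 per group, unadjusted p = 0.076 and adjusted p = 0.72 by limma). The NP livers lay close together, and each NP+tau liver was above them. Mrps16, a core protein shared with bacteria, was at 9.74, 9.80 and 9.85 (NP) and 10.26, 10.02 and 10.03 (NP+tau), with a difference of 0.31 (standard error 0.16, n = 3 per group, unadjusted p = 0.10 and adjusted p = 0.72 by limma). Mrps22, a mitochondria-only protein, was at 9.02, 9.22 and 9.31 (NP) and 9.60, 9.42 and 9.47 (NP+tau), with a difference of 0.31 (standard error 0.17, n = 3 per group, unadjusted p = 0.11 and adjusted p = 0.72 by limma). In both, replicate 1 was the highest NP+tau liver, and the groups stayed apart. Mrps7, an RNA-binding protein of the small subunit head, had the narrowest separation, with NP livers at 9.13, 9.08 and 9.23 and NP+tau livers at 9.30, 9.26 and 9.32.

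Of the large subunit, Mrpl42 was at 10.37, 10.46 and 10.32 in NP and 11.00, 10.54 and 10.64 in NP+tau, a difference of 0.34 (standard error 0.19, n = 3 per group, unadjusted p = 0.11 and adjusted p = 0.72 by limma). Mrpl11, which belongs to the stalk base where translation factors bind, was at 8.39, 8.26 and 8.42 (NP) and 8.75, 8.60 and 8.60 (NP+tau) (difference 0.29, standard error 0.16). The highest NP+tau liver was replicate 1 for both, while the other NP+tau livers still lay above NP. For Mrpl38, Mrpl13 and Mrpl21 the differences were 0.28, 0.29 and 0.26. The largest difference of a member, named here after its values were seen, was that of Mrpl14 at 0.46 (standard error 0.28, n = 3 per group, unadjusted p = 0.15 and adjusted p = 0.72 by limma). It was at 9.20, 9.53 and 9.42 in NP and 10.43, 9.50 and 9.60 in NP+tau, so that the groups overlapped and replicate 1 stood alone.

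The members with the lowest differences rested on the same array. Mrpl45, a protein by which the large subunit is held to the inner membrane, was at 8.68, 8.44 and 8.44 in NP and 7.12, 8.20 and 8.43 in NP+tau (difference -0.60, standard error 0.35, unadjusted p = 0.13 by limma). Without NP+tau replicate 1 the difference was -0.12. Mrps23 was at 7.75, 7.27 and 7.52 (NP) and 5.87, 7.76 and 7.34 (NP+tau), with a difference of -0.52, and at 0.04 without that array. Mrps25 (-0.34), Mrps26 (-0.25), Mrpl9 (-0.31) and Mrpl51 (-0.19) likewise turned to 0.07, 0.13, 0.11 and 0.10. Mrps9 was at 7.49, 7.44 and 7.80 (NP) and 6.93, 7.16 and 7.67 (NP+tau), and its difference of -0.32 was -0.16 without that array. All these differences without that array set NP livers with high Xist against NP+tau livers with low Xist.

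Each liver's mean deviation from the NP mean of the same probe sets shows where the subunits parted. In NP+tau replicate 1 the large-subunit genes lay at 0.15 on average and the small-subunit genes at -0.12, a gap of 0.27. In NP+tau replicates 2 and 3 the large subunit was at 0.10 and 0.12 and the small subunit at 0.14 and 0.15, with gaps of -0.04 and -0.03. The gap in the NP livers was -0.03 to 0.04. A gap above 0.04 was thus seen in 1 of 3 NP+tau livers. On that array 23 of 47 large-subunit genes were the highest of the 6 livers and 10 the lowest, while 8 of 29 small-subunit genes were the highest and 13 the lowest. Over all genes the same array was highest for 29.1% and lowest for 41.3%, and its mean deviation was -0.17. Members below the median level of all member probe sets had a mean deviation there of 0.02 (21 large) and -0.30 (17 small), and those above it of 0.26 (26 large) and 0.14 (12 small). The part of the array's quality in the gap was not tested. Without that array the medians were 0.11 for the large and 0.13 for the small subunit, with 36 of 47 and 25 of 29 above 0 and a median of 0.01 over all genes. In the livers that remain, Xist is high in NP and low in NP+tau, so diet and sex cannot be told apart. With the Xist level as a covariate, where replicate 1 is the only NP+tau liver with a high level, the medians were 0.33 and -0.15 and 9 members passed the adjusted threshold, beside 9449 probe sets in all.

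**Figure D2:**
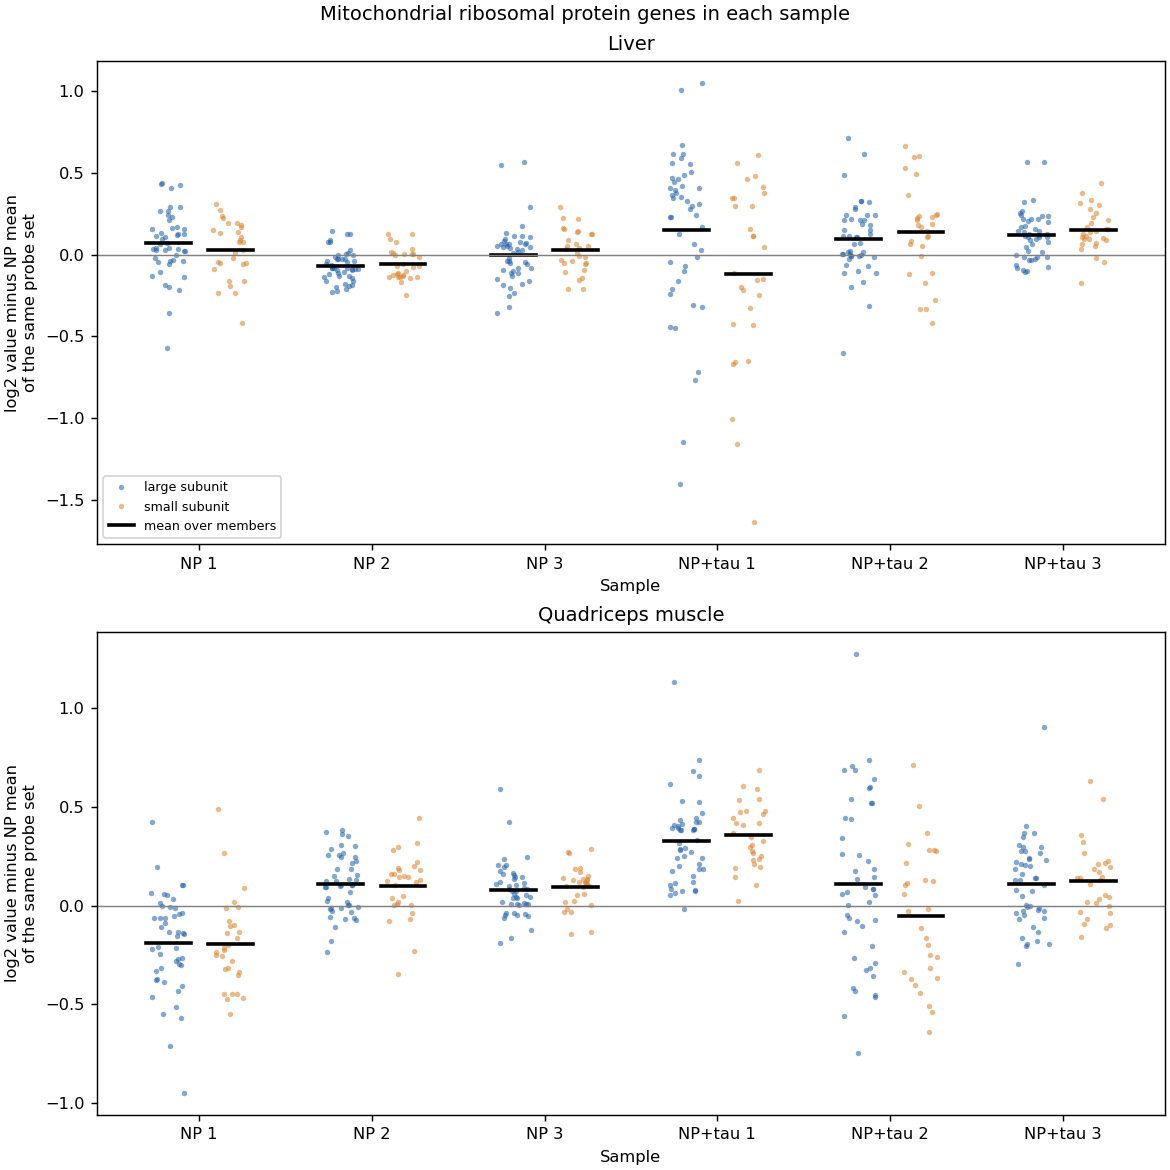
Deviation of each member from the NP mean of its own probe set (vertical axes, log2) in each sample (horizontal axes), for large-subunit (blue) and small-subunit (orange) genes, with a black bar for their mean; points are spread sideways to be seen. In liver the means part by 0.27 in NP+tau replicate 1 alone, and in muscle NP replicate 1 lies below 0 and NP+tau replicate 1 above it in both subunits.

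By origin, 24 of 29 large-subunit genes with bacterial homologues (median 0.15) and 14 of 18 found in mitochondria only (median 0.12) were above 0 in liver. In the small subunit these counts were 13 of 18 (median 0.13) and 4 of 10 (median -0.01). The lower count holds Mrps23, Mrps25 and Mrps26, which turned above 0 without NP+tau replicate 1. Of the genes whose symbol and structure disagree, Mrps30 differed by -0.01 (standard error 0.23), Mrps18a by 0.19 (0.19) and Mrps36 by 0.32 (0.19). Counted by structure, the medians were 0.14 for the large and 0.11 for the small subunit.

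In muscle, too, members of both subunits lay above 0 more often than genes at large, and none passed the adjusted threshold. Of 47 large-subunit genes 40 were above 0, with a median of 0.15 (interquartile range 0.07 to 0.29), and of 29 small-subunit genes 22, with a median of 0.14 (0.01 to 0.25). Over the 13812 genes tested 54.6% were above 0 and the median was 0.03. By limma 0 members had an adjusted p under 0.05, as did 0% of genes. An unadjusted p under 0.05 was reached by 3 members, all higher in NP+tau, 3.95% of members against 4.24% of genes that were higher at this level and 6.33% in either direction (2.09% were lower). The 3 were Mrpl3, Mrpl36 and Mrpl10, all of the large subunit and all with bacterial homologues. When the arrays were centred on their medians, the median of all genes moved to -0.02 and those of the subunits to 0.09 and 0.08, with 35 of 47 and 18 of 29 above 0, and 0 members had an unadjusted p under 0.05.

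These medians rested on the 2 muscle arrays numbered 1. Without NP replicate 1 they were 0.08 for the large and 0.01 for the small subunit, and without NP+tau replicate 1 they were 0.03 and 0.05. With both left out, a choice made after seeing the data, they were -0.04 and -0.10, with 21 of 47 and 11 of 29 genes above 0 and a median of 0.005 over all genes. In NP replicate 1 the mean deviation of the members was -0.19, and 37 of 76 were the lowest of the 6 muscles against 25.3% of all genes. In NP+tau replicate 1 it was 0.34, with 75 of 76 members above their NP mean and 47 the highest of the 6, against 15.4% of all genes. The other 2 NP muscles were at 0.11 and 0.08 and the other 2 NP+tau muscles at 0.05 and 0.11, so that these 4 did not separate by diet. NP replicate 1 also had the lowest Tfrc 3′ to 5′ difference of the muscles (1.97 against 2.53 to 3.15). Its Tfrc 3′ value of 5.92 was the lowest of the muscles. The 5′ value of 3.95 lay under the filter limit of 4.49, so that this difference is a weak sign of RNA quality. The part of that array's quality in the values was not tested.

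Mrpl3, a protein near the peptidyl transferase centre, was at 8.70, 8.81 and 8.70 in NP muscle and 9.13, 9.26 and 9.02 in NP+tau, a difference of 0.40 (standard error 0.14, n = 3 per group, unadjusted p = 0.023 and adjusted p = 0.71 by limma). Mrpl36, one of the smallest core proteins of the subunit, was at 7.35, 7.74 and 7.76 (NP) and 8.05, 8.21 and 7.96 (NP+tau), with a difference of 0.46 (standard error 0.17, n = 3 per group, unadjusted p = 0.03 and adjusted p = 0.71 by limma). Mrpl10, of the stalk that recruits translation factors, was at 8.29, 8.46 and 8.52 (NP) and 8.82, 9.11 and 8.61 (NP+tau), with a difference of 0.42 (standard error 0.17, n = 3 per group, unadjusted p = 0.045 and adjusted p = 0.71 by limma). In all 3, replicate 2 was the highest NP+tau muscle and no samples overlapped. With replicates 1 of both diets left out, the differences were 0.38, 0.34 and 0.37. In the muscles that remain, Xist is high in NP and low in NP+tau, so diet and sex cannot be told apart.

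Without overlap, 7 large-subunit and 2 small-subunit genes were higher in NP+tau muscle, 11.8% of members against 8.44% of genes. No member was lower without overlap, against 7.25% of genes. Beside Mrpl3, Mrpl36 and Mrpl10, these were Mrpl1, which forms the exit-site stalk (0.41, standard error 0.17), Mrpl24 (0.36, 0.18), Mrpl47 (0.38, 0.19) and Mrpl11 (0.18, 0.13). All 7 have bacterial homologues, where 29 of the 47 large-subunit genes do. The small-subunit genes were Mrps9 and Mrps2. With 1 muscle left out, 10 to 23 members were higher without overlap. The most were 23 without NP+tau replicate 2 (against 17.7% of genes), then 17 without NP+tau replicate 3 (11.9%) and 15 without NP replicate 3 (16.4%). There were 13 without NP replicate 2 (11.1%) and 12 without NP replicate 1 (12.2%). The fewest were 10 of 76 without NP+tau replicate 1, a lower share than the 15.2% of genes. With both arrays numbered 1 left out, 13 members were higher and 13 lower without overlap, against 21.1% and 20.1% of genes. Mrps9, whose bacterial counterpart touches the transfer RNA at the peptidyl site, was at 8.0, 7.91 and 8.04 in NP and 8.25, 8.26 and 8.25 in NP+tau, a difference of 0.27 (standard error 0.13, n = 3 per group, unadjusted p = 0.07 and adjusted p = 0.71 by limma), and the NP+tau muscles lay within 0.01 of each other. Its 4 probe sets did not move one way in muscle: a dimmer one was at 6.14, 6.14 and 5.94 in NP and 5.63, 5.69 and 5.92 in NP+tau, lower without overlap (-0.33, standard error 0.15, unadjusted p = 0.063 and adjusted p = 0.71 by limma), and the other two differed by 0.35 without overlap and by 0.16 with it. Mrps2, another core protein shared with bacteria, was at 8.03, 8.36 and 8.38 (NP) and 8.62, 8.54 and 8.43 (NP+tau), with a difference of 0.27 (standard error 0.15, n = 3 per group, unadjusted p = 0.12 and adjusted p = 0.71 by limma).

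**Figure D3:**
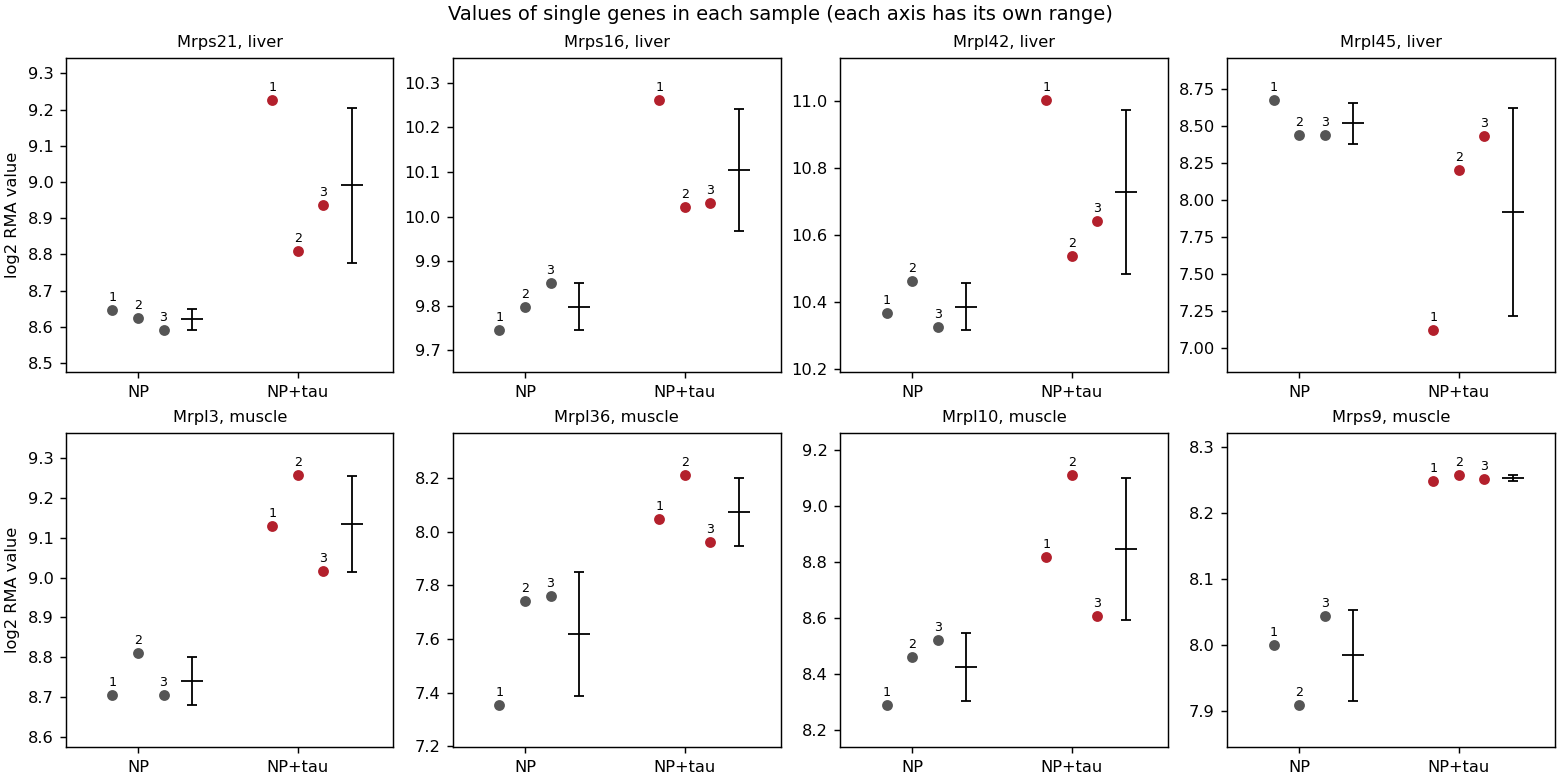
Log2 RMA values (vertical axes, each with its own range) of the brightest probe set of 4 members in liver and 4 in muscle, with grey points for the NP and red points for the NP+tau samples, replicate numbers above them, and the mean with the SD of 3 samples at its right. Mrpl45 in liver lies low in NP+tau replicate 1 alone (7.12), while the NP+tau muscles lie above the NP muscles for Mrpl3, Mrpl36, Mrpl10 and Mrps9.

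Large differences in muscle also came from members with wide spreads. Mrpl19 had the largest, 0.83 (standard error 0.41, n = 3 per group, unadjusted p = 0.085 and adjusted p = 0.71 by limma), with NP muscles at 6.25, 7.55 and 7.79 and NP+tau muscles at 8.33, 7.63 and 8.10. NP replicate 1 lay far below the rest, and without it the difference was 0.35. Mrpl41 was at 9.90, 9.24 and 9.29 (NP) and 9.68, 10.75 and 9.27 (NP+tau), with replicate 2 alone high in NP+tau. In the small subunit, Mrps25 (0.48), Mrps6 (0.45) and Mrps12 (0.39) had the largest differences, each with NP replicate 1 as the lowest sample and with overlapping groups. The lowest members were Mrpl52 at -0.22 (standard error 0.27) and Mrps26 at -0.17 (0.16).

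By means, the subunits parted in 1 of the muscles. In NP+tau replicate 2 the large-subunit genes had a mean deviation of 0.11 and the small-subunit genes of -0.05, a gap of 0.16. In the other 5 muscles the gap was between -0.03 and 0.01. By medians the gap was 0.11 on that array and 0.08 in NP replicate 1, while the remaining 4 muscles had -0.04 to -0.003. On the array of NP+tau replicate 2, 15 of 47 large-subunit genes were the highest of the 6 muscles and 8 the lowest, while 3 of 29 small-subunit genes were the highest and 11 the lowest, where it was highest for 23.4% and lowest for 21.0% of all genes. Its members also spread most, with an SD of 0.40 over the members against 0.12 to 0.24 in the other muscles. Mrps30 differed by 0.13 (standard error 0.25), Mrps18a by 0.23 (0.18) and Mrps36 by 0.10 (0.30). By structure the medians were 0.15 for both subunits.

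The tissues were set side by side through each gene's own differences. Of 76 members 46 lay above 0 in both tissues, 32 of 47 in the large and 14 of 29 in the small subunit, where 17.8% of the 12814 genes tested in both did. In single tissues 56 of the 76 members were above 0 in liver and 62 in muscle, against 46.3% and 54.6% of genes. Members above 0 this often in each tissue would often be above 0 in both, even if the tissues were unrelated. The count of 46 is thus no sign of a shared response, and no link between the tissues was tested. Another 16 were below 0 in liver and above it in muscle, 10 the reverse, and 4 below 0 in both. Mrpl11 was the only member above NP without overlap in both tissues, 1 of 76 against 0.265% of genes, by different probe sets. The probe set standing for it in muscle differed by -0.08 in liver (standard error 0.30), with NP+tau replicate 1 at 7.79 and the others at 8.35 to 8.78, and the one standing for it in liver by 0.19 in muscle (0.16). Mrps21 differed by 0.37 in liver and by -0.03 in muscle. An interaction term over all 12 arrays tested whether a gene differed by diet unequally in the tissues. By limma, 0 of the 76 members passed at an adjusted p under 0.05 and 0 at an unadjusted p under 0.05, against 0% and 8.60% of genes. The smallest p was that of the brightest probe set of Mrps9 (-0.32 in liver and 0.27 in muscle, unadjusted p = 0.051, adjusted p = 0.54), followed by Mrpl45 (-0.60 and 0.36, 0.066 unadjusted).

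**Figure D4:**
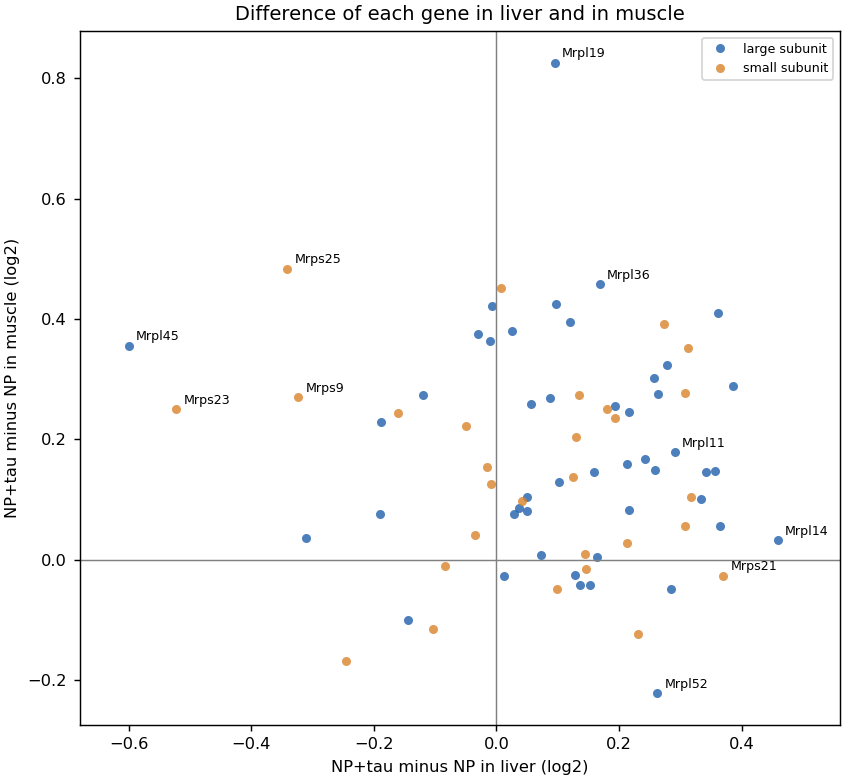
Difference between NP+tau and NP (log2) of each member in liver (horizontal axis) and in muscle (vertical axis), blue for the large and orange for the small subunit, with named members beside their points. The upper right field holds 46 of the 76 members, and Mrpl45, Mrps23, Mrps25 and Mrps9 lie at the upper left.

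Members with several probe sets allowed the readings of a gene to be compared with each other. Of 36 members with more than 1 probe set kept in liver, the differences had unlike signs in 14, and of 38 in muscle in 16. The median gap between the differences of 1 gene was 0.27 in liver and 0.20 in muscle. An example is Mrpl50, of the large subunit. In muscle its brightest probe set differed by 0.27 (standard error 0.22), with samples at 8.38, 8.21 and 8.23 in NP and 8.69, 8.87 and 8.08 in NP+tau, which overlapped. Its dimmer probe set was at 6.76, 7.32 and 7.18 in NP and 7.74, 7.89 and 7.85 in NP+tau, where groups did not overlap (0.74, standard error 0.18, unadjusted p = 0.0042, adjusted p = 0.71 by limma). In liver that probe set was at 5.21 in NP+tau replicate 1 and at 7.01 to 7.62 in the other livers. Mrpl19 had the widest gap, 0.66 in liver and 0.82 in muscle.

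**Figure D5:**
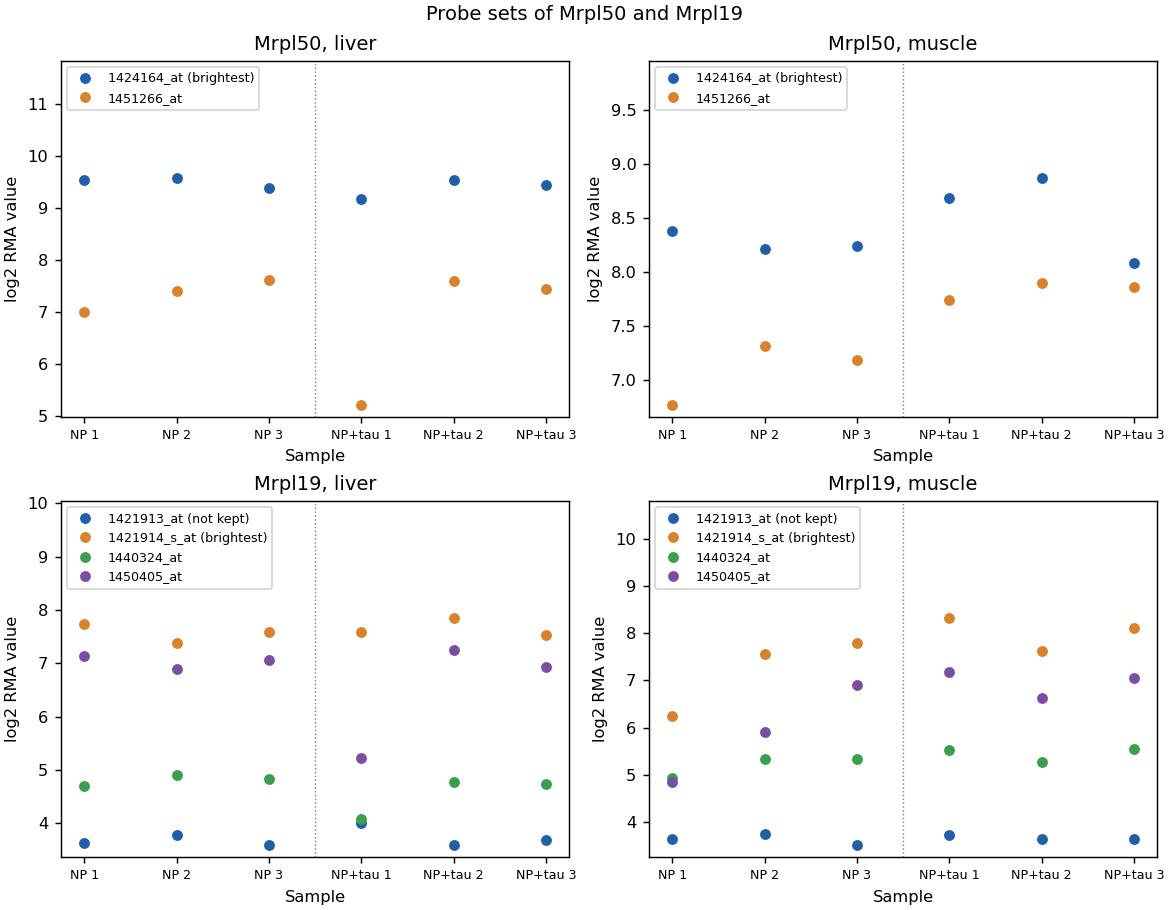
Log2 RMA values (vertical axes) of each probe set of Mrpl50 and Mrpl19 (colours) in each sample (horizontal axes), NP at the left and NP+tau at the right of the dotted line, in liver and muscle; levels of different probe sets are not comparable, and 1 dim probe set of Mrpl19 was not kept. For Mrpl50 in muscle the dimmer probe set separates the groups (0.74) and the brighter does not (0.27), and in liver the dimmer one lies at 5.21 in NP+tau replicate 1 alone.

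The other genes of mitochondrial translation were read from lists written with earlier results known. Mitoribosomal proteins under other names were Chchd1, Gadd45gip1, Dap3 and Ptcd3. In liver, 3 of these 4 lay above 0, Ptcd3 barely so (0.0003). Chchd1, of the small subunit, was at 9.22, 9.18 and 9.03 in NP and 10.01, 9.29 and 9.50 in NP+tau, a difference of 0.46 (standard error 0.23) without overlap, and Dap3, a GTP-binding protein of the small subunit, differed by -0.07. In muscle all 4 were above 0, the largest being Ptcd3 at 0.40 (0.29).

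Genes of mitoribosome assembly and rRNA modification lay above 0 in 13 of 27 kept in liver (median -0.01) and in 23 of 28 in muscle (median 0.26). In muscle 7 of them had an unadjusted p under 0.05, all higher (25%, against 4.24% of genes), and 0 in liver, while 0 passed after adjustment in either tissue. The mean level of the list was 7.22, 7.42 and 7.40 in NP muscle and 7.65, 7.62 and 7.53 in NP+tau muscle, so that the samples numbered 2 and 3 also lay apart here. In those samples Xist was at 10.85 and 11.13 in NP and at 5.56 and 5.12 in NP+tau. Diet and sex therefore cannot be told apart there. Mrm1, which methylates the large rRNA, was at 4.84, 5.21 and 5.27 in NP and 5.64, 6.15 and 6.03 in NP+tau, a difference of 0.83 (standard error 0.20, unadjusted p = 0.0040 by limma). These values lay not far above the filter limit of 4.49. Lrpprc, which stabilises mitochondrial messenger RNA, differed by 0.47 (0.18), Rpusd4, a pseudouridine synthase, by 0.32 (0.13) and Fastkd2, an RNA-binding protein needed for the large subunit, by 0.42 (0.16), each without overlap.

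Translation factors of mitochondria lay above 0 in 7 of 11 in liver (median 0.04) and in 10 of 11 in muscle (median 0.30), where Tufm, the elongation factor that delivers transfer RNA, differed by 0.37 (0.15) and Gfm2, which helps to split the ribosome after termination, by 0.38 (0.16). Their mean level was 7.16, 7.34 and 7.35 in NP muscle and 7.70, 7.48 and 7.55 in NP+tau muscle. The initiation factor Mtif3 had the smallest p of the list in liver (0.52, standard error 0.23). Of 15 mitochondrial aminoacyl-tRNA synthetases kept, 10 were above 0 in liver and 12 in muscle, with an unadjusted p under 0.05 for 2 in each tissue, all higher (13.3%, against 0.831% of genes higher in liver and 4.24% in muscle): Cars2 (0.52, standard error 0.17) and Sars2 (0.58, 0.22) in liver and Yars2 (0.77, 0.27) and Tars2 (0.37, 0.15) in muscle. The enzymes that set the taurine-containing or neighbouring sulfur group on mitochondrial transfer RNAs are Mto1, Gtpbp3 and Trmu. Their differences were 0.17, 0.30 and 0.31 in liver and 0.26, 0.04 and -0.16 in muscle, with standard errors of 0.16 to 0.23 and overlapping groups.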

How the data were processed

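Per the labels and the study's methods, RNA of liver and quadriceps muscle was hybridised to Affymetrix whole-genome mouse arrays, 3 for each diet and tissue. The authors made the deposited log2 values with RMA, after quantile normalisation of each tissue apart, so levels were compared within a tissue only. The table held 45101 probe sets, of which 64 controls were removed. Of the probe sets 34958 had 1 gene symbol in the annotation of the series, 932 several and 9211 none. Dim probe sets were left out, which were those whose maximum over the 6 samples of the tissue lay under the 35th percentile of all such maxima (4.60 in liver and 4.49 in muscle), which left 29274 in each tissue.

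The diet groups of a tissue were compared by linear models with moderated variances (limma 3.58.1, R 4.3.3). Benjamini-Hochberg adjustment ran over all probe sets kept, with a threshold of 0.05. Tissues were compared by an interaction over the 25622 probe sets kept in both. The study's SAM test was not used, since 3 samples against 3 allow few relabellings. The number of arrays limits the precision of each value. Subunits and lists were described by counts and medians beside those of all genes, with no test. The fit was tested on simulated data with known shifts in NP+tau. Of probe sets shifted by 0.5 on the log2 scale, 0% were called in either tissue. A shift of 1 was called in 4% in liver and 32% in muscle, and a shift of 2 in 64% and 70%. The absence of a call thus says little about differences of 1 or less in either tissue. Members and lists were chosen with earlier results of these data known. Named were, for each tissue and subunit, up to 5 members higher and 5 lower with the smallest p, those without overlap first, together with Mrpl50, genes whose symbol and structure disagree, members with the widest range or the most unlike probe sets, and list genes with the smallest p. Not every gene of this rule is printed, and Mrpl14, Mrpl15 and Mrpl16 in liver and Mrpl47, Mrpl11, Mrpl45 and Mrps23 in muscle were added after their values were seen.

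Alternatives were other filters, an intensity trend, array weights, centring, a covariate for the Xist level, a block for the replicate number, the mean of all probe sets of a gene, subunits by structure, and samples left out. Blocks were fixed terms of the linear models, and statmod 1.5.0 was loaded beside limma. The files were read by data.table (version 1.17.8) and pandas 2.3.3, and matplotlib 3.10.9 drew the plots. Promoters are those of RefSeq on GRCm38.p6. Mrps35, Mrpl19, Mrpl38, Mrpl15, Mrps28, Mrps34, Mrpl54, Mrpl13 and Mrpl4 had no entry in the table used. Newborn samples were not analysed here.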

Additional observations from a re-analysis of the deposited data

How the results depend on the processing

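No member passed the adjusted threshold under any alternative in either tissue, except that 9 did in liver with the Xist level as a covariate. Members at an unadjusted p under 0.05 in liver, 0 as reported, were 5 without a filter, 4 with array weights, 26 with the Xist level, and 0 to 1 with samples left out. In muscle, 3 as reported, they were 5 without a filter, 0 with centring, 0 with the Xist level, and 0 to 8 with samples left out, 0 of them without NP replicate 1 and 8 without NP+tau replicate 3. In liver the large-subunit median was 0.25 with centring and 0.33 with the Xist level, the small-subunit median -0.15 with the Xist level and the large minus small difference 0.48. In muscle the large-subunit median was 0.32 and the small-subunit median 0.35 with the Xist level. As in liver, replicate 1 is the only NP+tau muscle with a high Xist level. The median deviations of that 1 array from the NP mean were 0.32 and 0.35, so these medians rest on it. The large minus small difference in muscle was -0.035 with the Xist level and -0.0081 with array weights. With samples left out the liver medians ranged from 0.08 to 0.20 (large) and 0.08 to 0.17 (small), the liver large minus small difference from -0.025 to 0.11, the muscle medians from -0.044 to 0.24 and -0.10 to 0.25, and the muscle difference from -0.038 to 0.065. The sign of the difference between subunits was thus not kept in either tissue.

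Named genes that changed sign in liver did so with array weights (Mrpl51 0.079, Mrpl9 0.013, Mrps23 0.064, Mrps25 0.063, Mrps26 0.15, Mrps30 0.22), with centring (Mrps30 0.10) and with the mean of all probe sets (Mrpl19 -0.25). With samples left out the ranges in liver were -0.39 to 0.10 for Mrpl51, -0.57 to 0.11 for Mrpl9, -0.91 to 0.15 for Mrps23, -0.64 to 0.072 for Mrps25, -0.49 to 0.20 for Mrps26, -0.12 to 0.27 for Mrps30 and -0.0023 to 0.21 for Mrpl19. In muscle Mrps21 was at 0.019 with array weights, 0.29 with the Xist level and 0.11 with the mean of all probe sets, and Mrpl52 and Mrps26 at 0.059 and 0.021 with the Xist level. The muscle ranges with samples left out were -0.27 to 0.16 for Mrps21, -0.54 to 0.039 for Mrpl52, -0.34 to 0.33 for Mrps36, -0.046 to 0.38 for Mrps30, -0.0017 to 0.75 for Mrpl41 and -0.070 to 0.55 for Mrpl45. The causes were not tested, and the 6 arrays of a tissue limit what can be seen.

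The labels do not say that a replicate number pairs an NP with an NP+tau sample. Deviations of same-numbered samples correlated by 0.02, -0.11 and 0.11 in liver and by -0.21, -0.27 and 0.33 in muscle. So few correlations cannot decide whether same-numbered samples share a batch. With the replicate number as a block, 0 members were called in either tissue, and 0 in liver and 2 in muscle had an unadjusted p under 0.05. For the comparison between tissues, a fixed term was set for each diet and replicate number, as if these marked the same animal in both tissues. The labels do not say that they do. The count of members called stayed at 0.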
